A study of Mus musculus with 8 samples.

Results

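The imprinted Dlk1-Dio3 region of mouse chromosome 12 holds 6 microRNA (miRNA) hairpins that lie along the non-coding RNA genes Meg3 and Rian but outside its densest miRNA groups: mmu-miR-770, mmu-miR-673, mmu-miR-493, mmu-miR-341, mmu-miR-1188 and mmu-miR-370. They were found in the deposited table by name, with or without an arm ending (5p or 3p). This gave 12 of its 1099 rows, both arms of each hairpin. Of these, 11 were above 0 in some library, passed the filter on low values and were tested. The remaining row, miR-1188-3p, was listed at 0 in all 8 libraries, which allows a level of at most 5.54 to 8.28 RPM per library (the worth of 3 reads).

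The libraries came from KH2-DGCR8 cells, a mouse embryonic stem (ES) cell line that carries a doxycycline (Dox)-inducible transgene, here for DGCR8. DGCR8 is the RNA-binding partner of DROSHA in the Microprocessor, which cuts hairpins out of primary miRNA transcripts. Cells were differentiated as embryoid bodies (EBs), aggregates in which stem cells leave pluripotency, and small RNA was sequenced at days 0, 1, 2 and 4 in cells given Dox and in cells of the same genotype without it. Each of the 8 conditions had 1 library, so no value has a replicate of its own condition. An effect of Dox itself cannot be told apart from that of the transgene, because every library has the KH2-DGCR8 genotype. Small RNA libraries do not read messenger RNA, so the induction of DGCR8 was not checked. The length of the Dox treatment, and whether the line is 1 clone, were not found among the labels.

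Genomic imprinting means that a gene is read from the copy inherited from 1 parent. In the Dlk1-Dio3 region the non-coding RNAs Meg3 (also called Gtl2), anti-Rtl1, Rian and Mirg are read from the maternal chromosome, in the same direction, and are widely thought to come from a single long transcription unit. Their miRNA hairpins must be cut out by the Microprocessor, after which DICER cuts each hairpin into a duplex of a 5p and a 3p arm, and usually 1 arm is kept in an Argonaute protein. In ES cells and induced pluripotent cells the activity of this maternal unit differs between lines and has been followed as a sign of developmental potential.

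The sequences below show how different these neighbours are. All 12 rows matched a mature miRNA of the RefSeq annotation on GRCm38.p6 (the build also called mm10), and capitals mark the seed, bases 2 to 8 from the 5′ end, through which a miRNA mostly recognises its targets.
miR-770-5p: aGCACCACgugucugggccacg
miR-770-3p: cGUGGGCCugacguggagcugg
miR-673-5p: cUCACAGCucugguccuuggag
miR-673-3p: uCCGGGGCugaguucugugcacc
miR-493-5p: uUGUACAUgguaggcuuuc
miR-493-3p: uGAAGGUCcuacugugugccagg
miR-341-5p: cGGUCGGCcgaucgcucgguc
miR-341-3p: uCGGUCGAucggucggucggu
miR-1188-5p: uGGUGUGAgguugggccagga
miR-1188-3p: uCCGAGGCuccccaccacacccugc
miR-370-5p: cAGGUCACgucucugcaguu
miR-370-3p: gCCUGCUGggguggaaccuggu
The 12 seeds were all different, so what the members share is their position. The only member seed shared with another miRNA of the table was that of miR-370-5p, which miR-1193-3p of the Mirg group also has. The seed of miR-673-5p is also that of miR-6985-3p, which the table does not list. The members were rich in G and C: 11 of 12 lay above the median of 52.2% over 1679 mature miRNAs, with a mean of 63.6%, and miR-493-5p alone lay below it, at 42.1%.

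The hairpins lie on the plus strand of chromosome 12 within 54645 bases. miR-770 (chr12:109563692-109563785) lies inside Meg3, and in an exon of 1 of the 4 annotated Meg3 transcripts that span it. miR-673 (chr12:109571990-109572080) begins 264 bases past the annotated end of Meg3. miR-493 (chr12:109580233-109580315) lies outside Meg3, Rtl1, Rian and Mirg, the only genes searched. It is 8507 bases past Meg3 and 8878 before Rtl1, a protein-coding gene on the minus strand. miR-341 (chr12:109611500-109611595), miR-1188 (chr12:109611822-109611941) and miR-370 (chr12:109618258-109618336) lie in introns of Rian, and only 227 bases separate miR-341 from miR-1188. Hence 1 hairpin sits within Meg3, 3 within Rian and 2 in the interval between them.

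The miR-341 hairpin stands apart by sequence, because it holds many copies of a short repeat. Here capitals mark each CGGU, read on the strand of the RNA only, and CGGU cannot overlap itself.
miR-341 hairpin: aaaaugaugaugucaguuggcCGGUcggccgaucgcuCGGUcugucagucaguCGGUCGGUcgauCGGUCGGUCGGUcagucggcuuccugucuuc
It held 7 copies, which make up 28 of its 96 bases, with 4 of the copies in miR-341-3p and 2 in miR-341-5p. Of 1005 RefSeq hairpins of various lengths 11.9% held any CGGU, and no other held more than 3. The miR-770 hairpin, whose 3p arm was the only member called for Dox, has its mature arms in capitals.
miR-770 hairpin: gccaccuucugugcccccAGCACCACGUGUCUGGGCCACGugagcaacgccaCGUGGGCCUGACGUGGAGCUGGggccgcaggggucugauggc

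Values are the deposited scores, read as RPM (reads scaled to 1 common total of miRNA reads per library, with the deposited values summing to 999965 to 1000047). Each mature miRNA is read as 1 tag, whatever its length, so no length correction was applied. The libraries rested on 362483 to 541342 implied miRNA reads, with 630 to 751 miRNAs above 0. Against the labelled cell type, all 21 ES cell rows were above 0, with sums of 197072 to 458392 RPM without Dox and 229393 to 402775 with it. Summed markers of other types reached 13904 to 40065 RPM without Dox and 19693 to 58010 with it for fibroblasts or feeders, 3918 to 8051 and 3431 to 5807 for neural cells, and 280 to 806 and 595 to 988 for endoderm. Blood markers stayed between 31 and 95 RPM and 16 and 54 RPM, and muscle markers between 0 and 130 and 0 and 53, with miR-133a-5p at 0 in every library. All 12 fibroblast, 9 neural, 5 blood and 7 endoderm rows, and 3 of 4 muscle rows, were above 0 in some library.

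The members made up 3289 RPM, or 0.329% of the library, at day 0 without Dox, and 19584 RPM (1.96%) at day 4. With Dox the sum went from 4991 RPM at day 0 to 16905 at day 4. They were a small part of the region, between 5.02 and 10.9% of the RPM summed over the members, an anti-Rtl1 list and a Mirg list. Nearly all of it was 2 arms of Rian hairpins: miR-341-3p and miR-370-3p held 84.8 to 94.6% of the members' RPM in a library.

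Of the members, 2 arms stood well above the rest. miR-370-3p (mean 5456 RPM, rank 40 of all rows) and miR-341-3p (4530.5 RPM, rank 45) led, and their ranges over the 8 libraries overlapped. Next by mean came miR-673-5p (mean 254 RPM), miR-493-5p (175), miR-770-3p (125) and miR-673-3p (95), with neighbouring ranges that also overlapped. Lowest were miR-341-5p (50), miR-770-5p (37.9), miR-370-5p (36.1), miR-493-3p (25.3) and miR-1188-5p (11.5), each overlapping its neighbour in this order and also miR-770-3p. No library of the 2 leading arms was as low as any library of another member. Hairpins 227 bases apart thus differed widely: miR-341-3p was never below 1857 RPM, and miR-1188-5p never above 30.

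**Figure D1:**
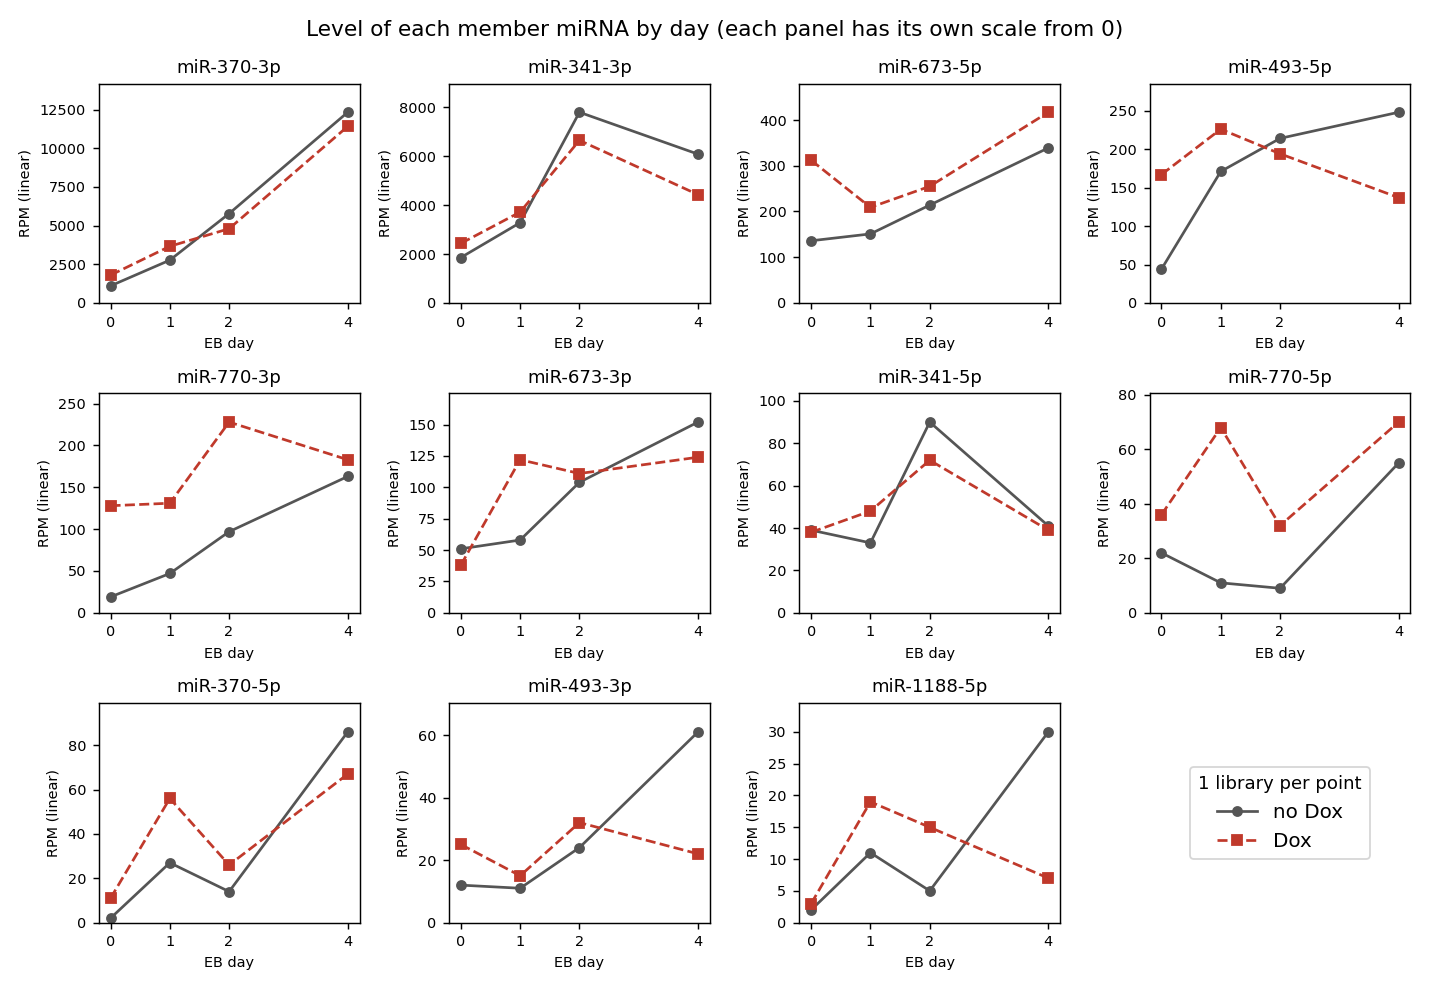
Level of each member (RPM, linear axis from 0, a separate scale per panel) against EB day, with circles for libraries without Dox and squares for libraries with Dox. miR-370-3p climbs to 12326 and 11411 RPM at day 4, miR-341-3p peaks at day 2, and the miR-770-3p squares lie above its circles on every day.

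Of the 11 members tested, 6 were higher at day 4 than at day 0, with different timing. Against day 0, and with Dox held in the model, limma called 3 of 11 higher at day 1, where 7.03% of all 839 miRNAs tested were called higher. At day 2 it called 6 of 11 (15.3% of all) and at day 4 again 6 of 11 (21.9% of all). The members' median log2 change was 0.72, 1.27 and 1.29 at days 1, 2 and 4, against 0.37, 0.48 and 0.56 over all miRNAs tested. That median of all lies well above 0, while the summed miR-290 to miR-295 cluster, the main ES cell cluster, fell from 460852 to 162740 RPM without Dox and from 404813 to 228907 with Dox. Over the same days the summed fibroblast or feeder markers went from 13904 to 40065 RPM without Dox and from 19693 to 58010 with Dox, and the neural markers from 3918 to 8051 and from 3431 to 5807. Muscle markers went from 7 to 130 RPM without Dox and from 0 to 53 with it. Endoderm markers instead fell from 806 to 497 and from 988 to 621, and blood markers from 42 to 31 and from 54 to 30. The part of these marker changes in the members' rise was not tested. With values scaled to miRNAs outside the miR-290 cluster, 4 of 11 members were called higher at day 4, as were 107 of all 839. With median-of-ratios factors, which put the median of all at 0.01 for day 4, 4 members were called higher (11.9% of all), namely miR-370-3p, miR-370-5p, miR-341-3p and miR-770-3p. In bulk libraries more cells of a type and more RNA per cell cannot be told apart.

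Most of the tested miRNAs of the neighbouring groups were higher at day 4 too. Of 18 anti-Rtl1 miRNAs tested 13 were called higher, with a median log2 change of 1.55, and of 68 Mirg miRNAs 48, also with a median of 1.55. At day 1 the medians were 0.21 for anti-Rtl1 (2 called higher) and 0.13 for Mirg (3 higher, 3 lower), below the members' 0.72. At day 2 they were 1.01 (8 higher) and 0.86 (25 higher). Differences between these lists were not tested.

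miR-370-3p, the main product of the Rian hairpin miR-370, rose on each day sampled. The series without Dox read 1105, 2768, 5777 and 12326 RPM at days 0, 1, 2 and 4, and the Dox series read 1798, 3662, 4801 and 11411. In each treatment every later library was above every earlier one, and at each day both libraries lay above both libraries of the previous day. Its log2 change at day 4 was 3.07 (SE 0.26, limma adjusted p = 6.51e-29), the second lowest p of all miRNAs tested. The call held in 10 of 10 alternatives, with limma adjusted p from 1.82e-28 to 0.00206, the highest being without the robust option. The day 4 level was 11.2-fold that of day 0 without Dox (95% counting interval 10.1 to 12.3) and 6.34-fold with Dox (5.85 to 6.89).

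miR-341-3p, from the repeat-bearing hairpin printed above, followed a different course and peaked at day 2. In the same order of days it read 1857, 3282, 7796 and 6083 RPM in the series without Dox and 2435, 3716, 6647 and 4428 in the Dox series. The day 2 libraries were the highest of each series. From day 2 to day 4 the level went to 0.780-fold without Dox (0.739 to 0.824) and 0.666-fold with Dox (0.631 to 0.703), while miR-370-3p, downstream in the same gene, went to 2.13-fold (2.03 to 2.24) and 2.38-fold (2.26 to 2.50). The fitted log2 change from day 0 was 1.76 at day 2 (SE 0.26, adjusted p = 2.08e-09) and 1.29 at day 4 (SE 0.26, adjusted p = 9.84e-06). The day 4 change of miR-341-3p was 0.69 with median-of-ratios scaling (limma adjusted p = 0.0492). It was 0.78 when values were scaled to miRNAs outside the miR-290 cluster (adjusted p = 0.0150). Its rarer arm, miR-341-5p, read 39, 33, 90 and 41 RPM in the series without Dox and 38, 48, 72 and 39 in the Dox series. Day 2 was again the highest, but day 4 was 1.07-fold day 0 without Dox (0.491 to 2.30), against 3.28-fold (3.02 to 3.56) for miR-341-3p. miR-341-5p was not called on any day (log2 change of 0.05 at day 4, SE 0.52), and that sign turned to -0.53 with median-of-ratios scaling and -0.44 when values were scaled to miRNAs outside the miR-290 cluster.

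miR-370-5p, the rarer arm of miR-370, rested on few reads at day 0. Without Dox it read 2, 27, 14 and 86 RPM, where the first value is 1 read, and at 11, 56, 26 and 67 with Dox. Both treatments showed a high day 1, a lower day 2 and the highest level at day 4. It was called higher at days 1, 2 and 4 (limma adjusted p = 7.71e-04, 0.0391 and 1.62e-07), though at day 2 in only 3 of 10 alternatives of the processing (adjusted p 0.0242 to 0.221). With Dox, where day 0 had 4 reads, the day 4 level was 6.08-fold that of day 0 (2.18 to 23.5), and without Dox 35.3-fold (5.88 to 1438).

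miR-493-5p and miR-673-3p, from the interval between Meg3 and Rian, were called higher at day 4 over both treatments, with fitted log2 changes of 1.09 (SE 0.40, adjusted p = 0.0280) and 1.62 (SE 0.45, adjusted p = 0.00246). Over 10 alternatives the first call held in 3 (adjusted p 0.0221 to 0.432) and the second in 8 (9.62e-04 to 0.0893). miR-493-5p read 44 RPM at day 0 and 248 at day 4 without Dox, 5.69-fold (3.40 to 10.03), but 167 and 137 with Dox, 0.820-fold (0.576 to 1.17). Its call thus came from the series without Dox. miR-673-3p read 51, 58, 104 and 152 RPM in the series without Dox and 38, 122, 111 and 124 in the Dox series, so that both day 0 libraries were its lowest. miR-673-5p, the main arm of the same hairpin, read 136, 151, 214 and 339 RPM in the series without Dox and 312, 209, 255 and 417 in the Dox series. Its day 0 library with Dox was above both day 2 libraries, and its day 4 log2 change of 0.86 (SE 0.37, adjusted p = 0.0688) was not called. miR-493-3p, the rarer arm of miR-493, read 12, 11, 24 and 61 RPM in the series without Dox and 25, 15, 32 and 22 in the Dox series, and was not called on any day. miR-1188-5p, from the hairpin beside miR-341, read 2, 11, 5 and 30 RPM in the series without Dox and 3, 19, 15 and 7 in the Dox series. With at most 11 reads, and fewer than 3 in 3 libraries, its course was not resolved at this depth.

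The Meg3 hairpin miR-770 gave 1 arm that was higher at day 4. miR-770-3p had a log2 change of 1.77 at day 4 (SE 0.44, limma adjusted p = 4.60e-04), called in 9 of 10 alternatives, and 1.56 at day 2 (SE 0.44, adjusted p = 0.00473). The day 4 level was 8.39-fold that of day 0 without Dox (3.99 to 20.3) and 1.42-fold with Dox (0.996 to 2.06), and the difference of these folds is the same quantity as a lower Dox ratio at day 4. miR-770-5p had a log2 change of 1.11 at day 4 (SE 0.59, adjusted p = 0.171) and was not called on any day.

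The Dox series was set against the untreated one, day by day, to ask which members differed with Dox. limma called 1 of 11 members, miR-770-3p, which was higher with Dox, and 1.31% of all miRNAs tested were called higher. The members' median log2 change was 0.18, against 0.03 over all miRNAs tested, -0.04 over the anti-Rtl1 list and -0.03 over the Mirg list. The fitted change was above 0 for 10 of 11 members, a direction that 53.9% of all miRNAs tested shared. That count was 7 of 11 with limma-voom on implied reads, 6 without the day 1 pair and 8 without the day 0 pair. Of the 18 anti-Rtl1 miRNAs 0 were called in either direction, and among the 68 Mirg miRNAs 0 were called higher and 1 lower. Over all 839 miRNAs tested 11 were called higher and 5 lower, so few calls were made anywhere. An unadjusted limma p under 0.05 was reached by 3 of 11 members, 0 of 18 anti-Rtl1 miRNAs, 7 of 68 Mirg miRNAs and 10.5% of all.

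miR-770-3p, the main arm of the Meg3 hairpin, read 19, 47, 97 and 163 RPM in the series without Dox and 128, 131, 228 and 183 in the Dox series. The library with Dox was the higher one on every day, although the groups of 4 overlapped, since day 4 without Dox lay above days 0 and 1 with Dox. The within-day ratio was 6.62 (3.10 to 16.2) at day 0, 2.81 (1.70 to 4.83) at day 1, 2.34 (1.62 to 3.44) at day 2 and 1.12 (0.806 to 1.58) at day 4. The fitted log2 change was 1.38 (SE 0.31, limma adjusted p = 0.00247), and no call was made without the robust option, without a day term, with a linear day term, or without the libraries of day 0, 1 or 2. The day 0 library without Dox held only 8 reads of it.

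miR-770-5p came from the same hairpin and lay on the same side. Its levels were 22, 11, 9 and 55 RPM in the series without Dox and 36, 68, 32 and 70 in the Dox series, again higher with Dox on every day. Its ratio was 1.63 (0.644 to 4.32), 6.08 (2.37 to 19.9), 3.36 (1.07 to 13.9) and 1.27 (0.722 to 2.31) at days 0, 1, 2 and 4. The counting interval lay above 1 at days 1 and 2 only. Its log2 change of 1.32 (SE 0.41, limma adjusted p = 0.0655) was close to that of miR-770-3p but missed the threshold, and it was called when the filter kept only means of 10 RPM or more and without the day 4 pair.

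miR-673-5p, from the hairpin just past the end of Meg3, was likewise higher with Dox on each day. Its ratios were 2.295 (1.65 to 3.22), 1.38 (1.01 to 1.90), 1.195 (0.902 to 1.59) and 1.23 (0.983 to 1.55), with a log2 change of 0.55 (SE 0.26, limma adjusted p = 0.400). In all, 3 of 11 members, both arms of miR-770 among them, were higher with Dox on all 4 days. This held for 9.42% of the 499 miRNAs whose mean was 10 RPM or more. Lower on all 4 days were 0 of 11 members and 51 of those 499 miRNAs. The other members had log2 changes from -0.03 for miR-341-3p to 0.88 for miR-370-5p (SE 0.45, adjusted p = 0.476), and none of these 8 was called.

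**Figure D2:**
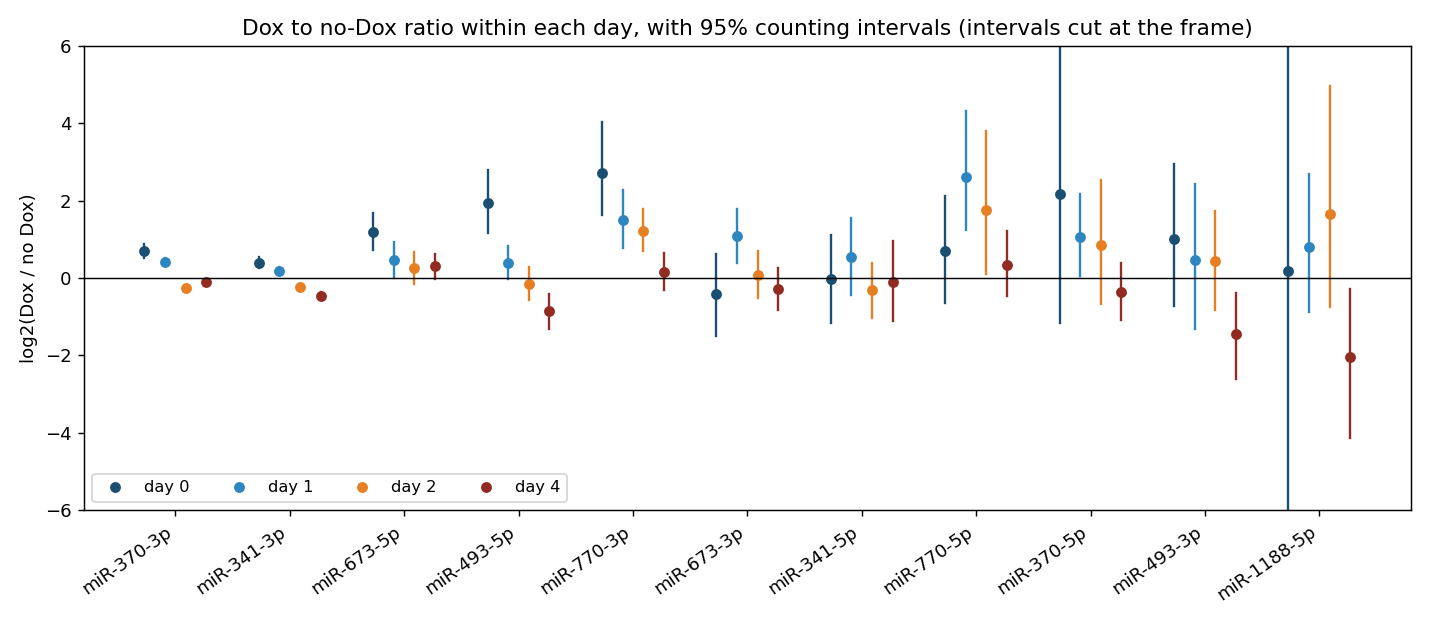
Log2 ratio of the library with Dox to the library without it for each member, with 1 point per day and lines for the 95% counting interval, cut at 6 on either side. The day 0 ratio is the highest of the 4 for both arms of miR-370 and miR-493 and for miR-341-3p, miR-673-5p and miR-770-3p, but not for the others. Of the 11 day 4 ratios, 8 lie below 0.

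The Dox ratio of 1 member changed with day by the test, and the slopes of the others were also below 0 without passing it. The count of members higher with Dox was 9 of 11 at day 0, 11 at day 1, 7 at day 2 and 3 at day 4. Over those 499 miRNAs the share was 50.9, 56.3, 43.5 and 46.7% on those days. The members' median log2 ratio went from 0.70 at day 0 to 0.53, 0.25 and -0.29 at days 1, 2 and 4. The fitted change of the ratio per day was below 0 for 11 of 11 members, and for 54.8% of all miRNAs tested. It was also below 0 for 57 of 68 Mirg miRNAs (83.8%) and 13 of 18 anti-Rtl1 miRNAs (72.2%), so the direction was common in the region. Without the day 4 pair it was below 0 for 8 of 11 and without the day 1 pair for 10.

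limma called 1 member, miR-493-5p, for a falling Dox ratio, where 0.715% of all miRNAs tested were called falling. Its levels were 44, 171, 214 and 248 RPM in the series without Dox and 167, 226, 194 and 137 in the Dox series. Without Dox it was highest at day 4, and with Dox day 4 was its lowest library. The ratio was 3.82 (2.23 to 6.87) at day 0, 1.32 (0.982 to 1.78) at day 1, 0.907 (0.670 to 1.23) at day 2 and 0.551 (0.399 to 0.757) at day 4, so the counting intervals lay on opposite sides of 1 at the first and the last day. The log2 ratio changed by -0.64 per day (SE 0.18, limma adjusted p = 0.0429), and the call was lost when any day's pair was left out. miR-770-3p had a slope of -0.59 (SE 0.20, adjusted p = 0.119), which did not pass.

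The abundant Rian arms showed the same crossing with far narrower counting intervals. For miR-341-3p the ratio was 1.31 (1.19 to 1.45), 1.13 (1.06 to 1.21), 0.853 (0.812 to 0.896) and 0.728 (0.687 to 0.772) at days 0, 1, 2 and 4. For miR-370-3p it was 1.63 (1.44 to 1.84), 1.32 (1.23 to 1.42), 0.831 (0.784 to 0.880) and 0.926 (0.891 to 0.962). Each interval excludes 1, above it on the first 2 days and below it on the last 2, but these intervals compare pairs of libraries and do not cover the spread between cultures. Their slopes of -0.22 and -0.21 per day (SE 0.10 for each, limma adjusted p = 0.405 and 0.412) did not pass. The summed members had ratios of 1.52, 1.26, 0.865 and 0.863, the Mirg list 1.37, 1.497, 0.949 and 0.970, and the anti-Rtl1 list 0.916, 1.29, 0.790 and 0.960. The summed miR-290 to miR-295 cluster read 162740 RPM at day 4 without Dox and 228907 with Dox, and when values were scaled to miRNAs outside it 11 of 11 slopes were below 0 and miR-493-5p was not called.

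**Figure D3:**
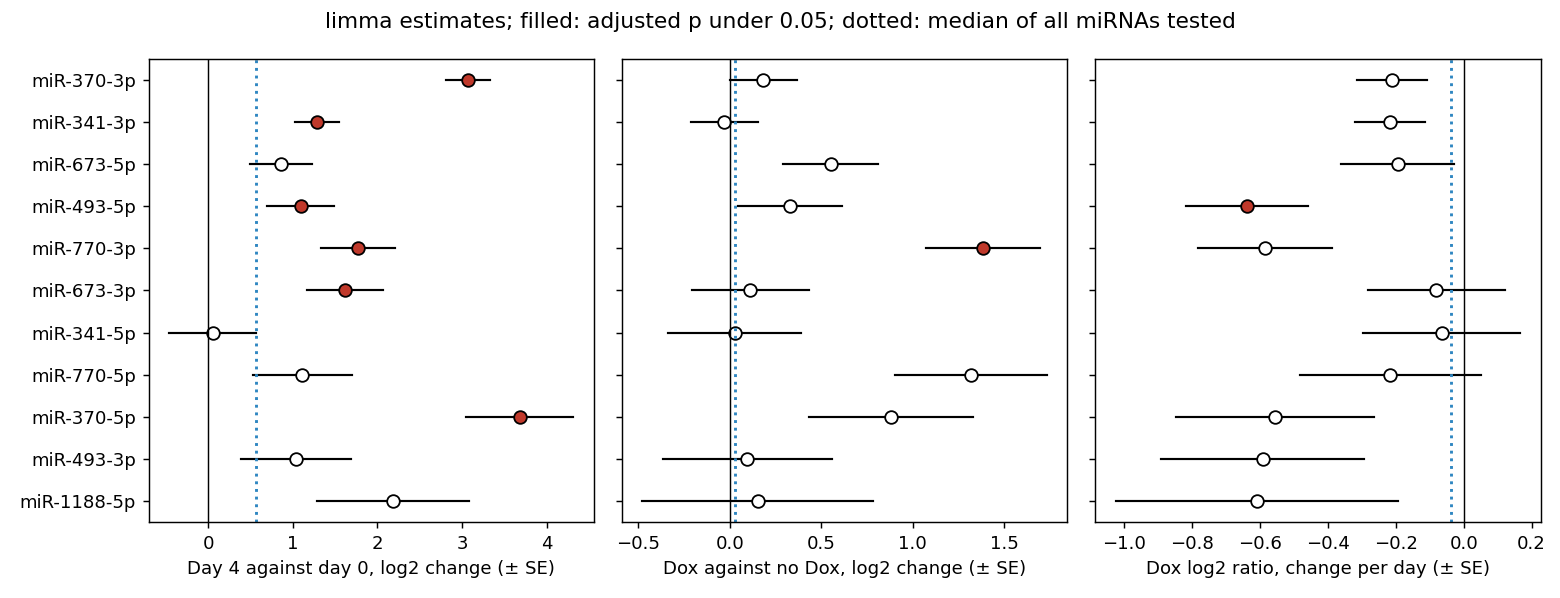
limma estimates for each member with their SE: day 4 against day 0, Dox against no Dox, and the change of the Dox log2 ratio per day, with filled points for an adjusted p under 0.05 and a dotted line at the median of all miRNAs tested. The filled points are 6 at day 4, miR-770-3p for Dox and miR-493-5p for the slope, and all 11 slopes lie below 0.

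Which arm of a hairpin held most of its reads differed between members. The 3p arm made up nearly all reads of the Rian hairpins miR-370 and miR-341, with a 5p share of 0.219 to 1.51% and 0.676 to 2.05%. For the hairpins between Meg3 and Rian the 5p arm led, with 63.2 to 89.1% for miR-673 and 78.3 to 93.9% for miR-493. miR-1188, also in Rian, was by contrast read from its 5p arm alone, with 1 to 11 reads in a library.

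For miR-770 the 5p share ran from 8.89 to 52.9%, and from 8.89 to 34.0% without the day 0 library that had no Dox. Without Dox its 5p share was 52.9% at day 0 (9 of 17 reads, exact binomial interval 27.8 to 77.0), 19.2% at day 1 (6.55 to 39.4), 8.89% at day 2 (2.48 to 21.2) and 25.3% at day 4 (16.2 to 36.4). With Dox it was 21.7% (12.1 to 34.2), 34.0% (24.9 to 44.0), 12.3% (7.05 to 19.5) and 27.7% (20.4 to 36.0). The intervals of the 2 treatments overlapped on every day, and the difference between treatments was not tested. In both treatments day 2 had the lowest 5p share. For miR-673 the day 0 library with Dox stood apart, at 89.1% (82.3 to 93.9) from the 5p arm against 72.7% (61.4 to 82.3) without Dox. This was the only one of the within-day pairs, over these 5 hairpins, whose intervals did not overlap, and they nearly met. The other 7 libraries of miR-673 lay between 63.2 and 77.1%.

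**Figure D4:**
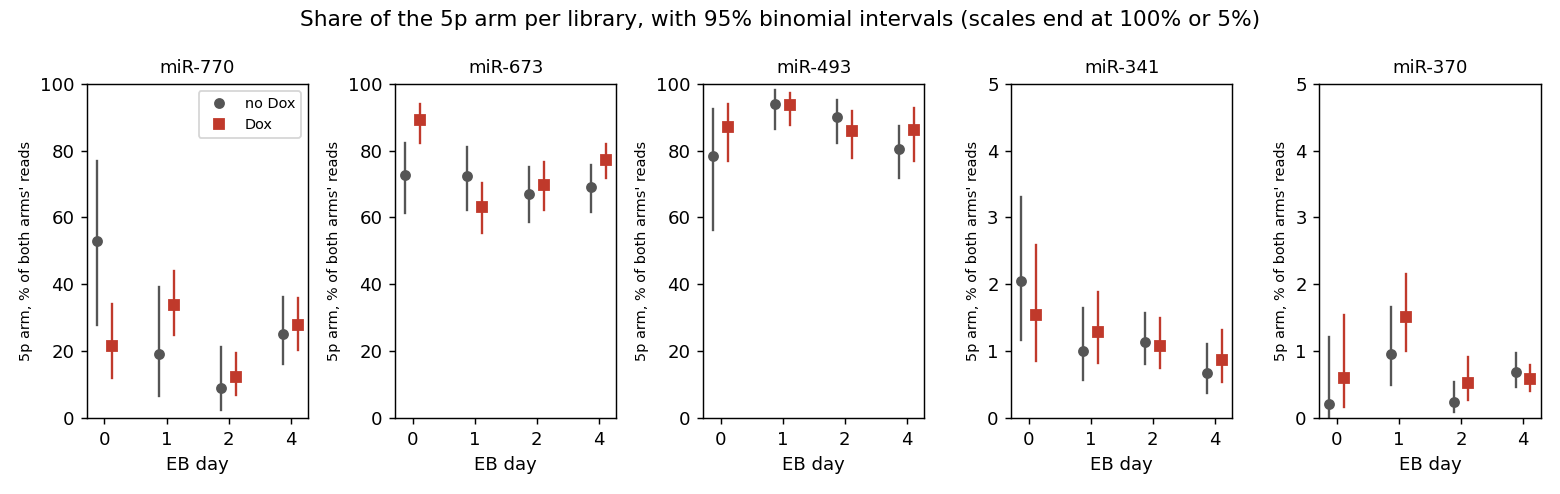
Share of the 5p arm among the reads of both arms (percent) by EB day for the 5 hairpins with both arms above 0, with lines for exact 95% binomial intervals and circles for no Dox and squares for Dox. The scale ends at 100% for miR-770, miR-673 and miR-493 and at 5% for miR-341 and miR-370, where the 3p arm holds nearly all reads.

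Members resembled each other only in part. Pearson's r of log2(RPM + 1) between 2 members was taken over the 8 libraries, which differ by day as well as by Dox. It ran from -0.31 to 0.87 over 55 pairs, with a median of 0.57, and 3 pairs lay below 0. The correlations that follow use the same 8 libraries and are given as a description. The 3 miRNAs most like each member were named among 488 other rows averaging 10 RPM or more. Of these 33 namings, 16 were of miRNAs in the region by RefSeq coordinates. Among them miR-1193-5p, named for both miR-770-3p and miR-493-5p, was counted for each. Of the 488 rows, 69 (14.1%) lay in the region. Counting the Mirg list by name as well, the number of namings was 17.

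For miR-370-3p these were miR-431-3p (r = 0.99) and miR-433-3p (0.98) of the anti-Rtl1 list and miR-666-5p (0.98). By coordinates miR-666-5p also lies in the region, though it is on neither list. Next to miR-341-3p stood miR-652-3p (0.96), miR-20b-5p (0.94) and miR-410-3p (0.92), of which only miR-410-3p belongs to a list of the region, Mirg. miR-341-5p was most like miR-540-5p of the anti-Rtl1 list (0.88), miR-425-5p (0.87) and miR-190a-5p (0.86). The rare arm miR-370-5p had miR-363-5p (0.97), miR-598-3p (0.90) and miR-466i-5p (0.89), none of them from the region. miR-1188-5p, at few reads, was nearest to miR-103-3p (0.97), miR-107-3p (0.96) and miR-744-5p (0.94). The other members were left out of the 488 candidates, and with so many candidates over 8 libraries different nearest names do not show different courses. Between both arms of a hairpin r was 0.54 for miR-770, 0.44 for miR-673, 0.53 for miR-493, 0.72 for miR-341 and 0.84 for miR-370. Between hairpins of Rian it was 0.80 for miR-341-3p with miR-370-3p and -0.05 for miR-341-5p with miR-370-5p.

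Both arms of miR-673 were most like Mirg miRNAs. For miR-673-5p they were miR-381-3p (0.92), miR-329-3p (0.89) and miR-377-5p (0.87), and for miR-673-3p miR-1193-3p (0.93), miR-409-5p (0.92) and miR-380-3p (0.92). miR-493-3p was likewise nearest to miR-758-3p, miR-411-3p (0.88 each) and miR-494-3p (0.87), all of Mirg. miR-493-5p instead had miR-935 (0.88), miR-1193-5p of the Mirg list (0.87) and miR-504-5p (0.85). miR-770-3p had miR-539-3p (0.96) and miR-1193-5p (0.92), both of the Mirg list, and miR-671-5p (0.94). miR-770-5p had miR-34b-3p (0.91), miR-28a-3p (0.89) and miR-99a-5p (0.85).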

How the data were processed

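Per the labels' protocols, TRIzol was used for total RNA and an NEBNext kit for the small RNA libraries of all 8 samples. Bowtie and mm10 are named without a role per the submitters' processing notes; the counting step and miRNA annotation were not found there. The authors deposited a table of scores: whole numbers summing to 999965 to 1000047 per library, as rounded RPM would, and 1 row naming no miRNA was left out. For each library the smallest read total was sought for which all values are whole reads within 0.5 RPM; 1 to 3 totals matched, and 1 read is worth 1.85 to 2.76 RPM. Intervals (95%) rest on these reads, exact conditional binomial for ratios and Clopper-Pearson for shares. They cover counting error only.

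Groups came from the treatment given in the sample labels, and columns were matched by the sample descriptions. The tests had been planned for counts or normalized values, and the table required the latter. log2(value + 1) was tested with limma 3.58.1 (R 4.3.3; Python 3.11.15 otherwise), with trend and robust prior, for miRNAs at 1 or more in at least 2 libraries (839), with Benjamini-Hochberg adjustment over all of them and a threshold of 0.05. Fold changes on this scale understate low miRNAs. Treatment and day as a factor left 3 residual degrees of freedom, and the slope model (treatment times day) 2. Prior degrees of freedom were infinite for all but 39 and 3 miRNAs, so most SEs come from the trend. The labels name no separate cultures, so p-values measure only how these libraries vary, which may be technical. Alternatives changed the pseudocount, filter, scaling, prior, test, day term and libraries.

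Every member row was named, with the 3 rows most correlated with each; other miRNAs were named only where a member's result turned on them. The members, the anti-Rtl1 and Mirg lists (19 and 69 rows, matched by hairpin name) and the cell type markers were chosen with earlier results of these data known.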

Additional observations from a re-analysis of the deposited data

Results flagged for a closer look

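The Dox ratio of miR-493-5p differed between days by the test of the change itself: its log2 ratio changed by -0.637 per day (limma, SE 0.18, adjusted p = 0.0429). It was higher with Dox by 3.82-fold at day 0, and its ratio was 0.551 at day 4. Over 13 alternatives the adjusted p ran from 0.0306 to 0.819, and the call was made in 4.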

How the results depend on the processing

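Counts of members called changed as follows. For Dox against no Dox, 1 member became 2 when a mean of at least 10 RPM was required and 0 without the robust option, without a day term and with day as a linear term; leaving out a day's pair gave 0 to 2. For the change of the Dox ratio, 1 became 0 without a filter, with scaling outside the miR-290 cluster, without the robust option, with limma-voom on implied reads and with days 2 and 4 set against days 0 and 1; leaving out a pair gave 0. Without the robust option 3 became 0 at day 1 and 6 became 2 at day 2, where median-of-ratios scaling also gave 2; leaving out a pair gave 2 to 4 at day 1, 3 to 6 at day 2 and 5 at day 4. Over all miRNAs tested, 16 Dox calls became 0 without the robust option (71 at an unadjusted p under 0.05) and without a day term (25), and 1 with a linear day term. Median-of-ratios scaling moved the split of higher to lower calls from 59 and 9 to 35 and 34 at day 1, from 128 and 17 to 51 and 51 at day 2, and from 184 and 32 to 100 and 61 at day 4. Scaling outside the miR-290 cluster gave 92 and 27 at day 2 and 107 and 57 at day 4, and for the change of the Dox ratio 6 rising and 5 falling against 2 and 6. Without the robust option the slope gave 0 calls (81 at an unadjusted p under 0.05), day 1 gave 12 and 1, and day 2 gave 61 and 11; days 2 and 4 against days 0 and 1 gave 0 slope calls (38).

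miR-770-3p was called for Dox in 8 of 14 alternatives (log2 change 0.95 to 1.79, adjusted p 8.47e-06 to 1). Changes of sign touched members not called in that comparison. With limma-voom the Dox change was -0.084 for miR-493-3p, -0.0056 for miR-341-5p and -0.0092 for miR-1188-5p. Leaving out pairs, the Dox change ranged from -0.17 to 0.11 for miR-341-3p, -0.205 to 0.61 for miR-493-3p, -0.20 to 0.29 for miR-673-3p, -0.14 to 0.14 for miR-341-5p, -0.20 to 0.72 for miR-493-5p and -0.27 to 0.86 for miR-1188-5p. The change of the ratio per day ranged from -0.41 to 0.25 for miR-673-3p, -0.72 to 0.52 for miR-770-5p and -1.01 to 0.50 for miR-1188-5p. The day 4 change of miR-341-5p was -0.53 with median-of-ratios scaling and -0.44 with scaling outside the miR-290 cluster. The causes were not tested.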
